A study of Glycine max with 6 samples.

Results

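Plasma membrane intrinsic proteins (PIPs) are the aquaporins of the plant cell's outer membrane. Each forms a pore that lets water, and in some members small solutes or CO2, cross the membrane, and in leaves they carry water between the veins, the mesophyll and the air spaces. Plants hold a PIP1 and a PIP2 class. In maize, PIP1 proteins stay largely inside the cell when alone and reach the outer membrane when paired with a PIP2 protein in a mixed tetramer, so the level of one class alone does not give the number of working pores.

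The 8 soybean (Glycine max) genes described here were taken by their NCBI gene numbers from 41759 genes in the deposited table: PIP1-6, PIP1-7, PIP1-9 and PIP1-10 of the PIP1 class and PIP2-1, PIP2-7, PIP2-10 and PIP2-11 of the PIP2 class. All 8 carry these symbols in the RefSeq table used for names, which holds 15 further PIP genes that are in the deposited table. Leaf RNA of field-grown plants of 2 genotypes, HN44 and SN14, was sequenced in 3 libraries each. The series says that they differ in the efficiency of their water use, not which is the more efficient, and names no treatment, leaf age or hour of sampling. Separate plants behind the 3 libraries are not stated in the labels, and the p-values below thus reflect only how these libraries vary, which may be technical. Values are FPKM, fragments scaled to gene length and to the fragments of the library, so levels of different genes can be compared. In bulk leaf RNA, fewer cells that express a gene and less RNA per cell cannot be told apart.

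Of the leaf markers, all 11 genes for the Rubisco small subunit, Rubisco activase and light-harvesting proteins had at least 1 FPKM in every library and together took 7.19% to 8.78% of the FPKM total in HN44 and 8.72% to 10.3% in SN14. The seed storage gene GY3 stayed at or under 0.07 FPKM, and no nodule marker was matched by symbol. HN44-3 resembled a mixture of the other HN44 libraries: of 1922 genes averaging 5 FPKM or more in HN44 and over 2-fold apart in HN44-1 and HN44-2, it lay between these libraries in 99.8%. HN44-1 and HN44-2 added with weights of 0.57 and 0.43 gave its values with a median absolute deviation of 0.06 on the log2 scale. Among the 8 PIP genes it lay between them in 7, the exception being PIP2-10. HN44 means below are therefore of HN44-1 and HN44-2 (SD, n = 2), SN14 means are of 3 libraries (SD, n = 3), and each adjusted p of the 6-library fit is followed by the value without HN44-3.

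The PIP1 genes PIP1-7 and PIP1-10 were the most abundant of the 8 in HN44, and were joined in SN14 by PIP1-6. PIP1-7 (gene 100780145; chromosome 14, 4978304 to 4980045, plus strand, in coordinates of the authors' table, for which the sources used here name no build) had 442, 296 and 384 FPKM in the HN44 libraries, given here and below in the order 1, 2 and 3, and 397, 309 and 136 FPKM in those of SN14. SN14-3 was the lowest library, the other 5 lay between 296 and 442 FPKM, and the genotypes overlapped. PIP1-10 (gene 100775766; chromosome 2, 44208250 to 44209853, minus strand) was at 234, 215 and 223 FPKM in HN44 and at 247, 200.4 and 121 FPKM in SN14. It was the steadiest of the genes in HN44, where the highest library was 1.09 times the lowest, against 2.04 times in SN14, and again SN14-3 was the lowest library.

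PIP1-6 (gene 100780356; chromosome 8, 1204361 to 1206125, plus strand) had the widest range of the genes with a value above 0 in every library. It stood at 4.98, 112 and 50.3 FPKM in HN44 and at 311, 101 and 145 FPKM in SN14. HN44-1 was far below the other libraries and SN14-1 far above them, at 62.4 times the HN44-1 value, while HN44-2 lay just above SN14-2. PIP1-9 (gene 100781984; chromosome 1, 38834059 to 38837580, minus strand) was at 0.13, 0 and 0.03 FPKM in HN44 and at 0.07, 0.1 and 0.07 FPKM in SN14. No library reached 1 FPKM for this gene, so it did not pass the filter on low values and was not tested.

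Among the PIP2 genes, PIP2-7 (gene 100785783; chromosome 3, 39267127 to 39268919, minus strand) stood at 6.11, 34.4 and 19.3 FPKM in HN44 and at 70.5, 30.6 and 33.2 FPKM in SN14. As for PIP1-6, the lowest library was HN44-1 and the highest SN14-1, with HN44-2 slightly above SN14-2. PIP2-1 (gene 100306103; chromosome 4, 266937 to 268294, minus strand) was at 0.8, 2.13 and 1.1 FPKM in HN44 and at 15.6, 4.53 and 31.6 FPKM in SN14. It was the only gene of the 8 whose genotypes did not overlap, and within SN14 its highest library was 6.97 times its lowest.

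PIP2-11 (gene 100782690; chromosome 16, 31513388 to 31524884, minus strand) stood at 16.5, 22.9 and 21.3 FPKM in HN44 and at 30.2, 22.8 and 10.3 FPKM in SN14, with all HN44 values inside the SN14 range. PIP2-10 (gene 100782155; chromosome 16, 31513388 to 31516840, minus strand) was at 2.31, 0.9 and 0.88 FPKM in HN44 and at 9.24, 4.06 and 0.2 FPKM in SN14. Of the genes above 0 in every library it had the widest range within a genotype, with SN14-1 at 46.2 times SN14-3. In the authors' table these genes share their start and strand, and the 3453 bases of PIP2-10 lie wholly within the span of PIP2-11, so that reads may have been divided between them and the values of both are uncertain.

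**Figure D1:**
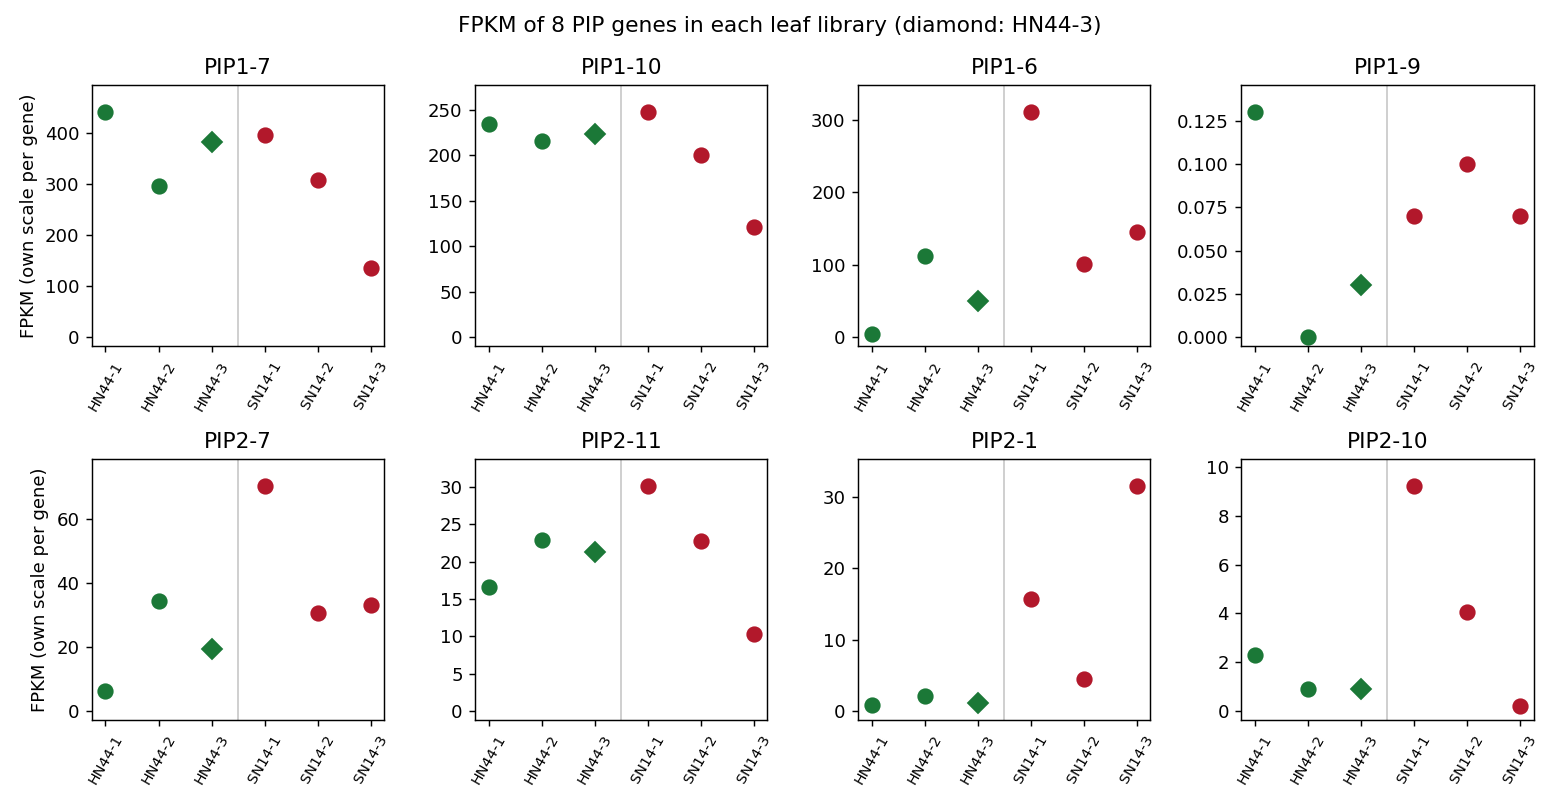
FPKM of each of the 8 PIP genes (vertical axis, own linear scale per gene) in the 3 HN44 libraries (green; the diamond is HN44-3) and the 3 SN14 libraries (red). Only PIP2-1 has no overlap between genotypes, with HN44 at or under 2.13 FPKM and SN14 at or above 4.53 FPKM.

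In the order of mean levels, PIP1-7 stood above PIP1-10 and PIP1-10 above PIP1-6 in HN44 with no overlap between the ranges of neighbours. In SN14 the ranges of PIP1-7, PIP1-10 and PIP1-6 overlapped and their order was not resolved. PIP1-6, PIP2-11 and PIP2-7 overlapped in turn in HN44, as did PIP2-10 and PIP2-1. By the means of HN44-1 and HN44-2 alone, PIP2-7 stood just above PIP2-11, at 20.3 against 19.7 FPKM. In SN14, PIP1-6 stood above PIP2-7, whose lowest value of 30.6 FPKM lay just above the highest of PIP2-11, at 30.2 FPKM. PIP2-11, PIP2-1 and PIP2-10 then overlapped in turn. PIP1-9 was last in both genotypes.

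Summed over the 8 genes, the level was 707, 684 and 700.0 FPKM in HN44 and 1081, 673 and 477 FPKM in SN14. The HN44 sums were close to each other, and those of SN14 lay on both sides of them. The PIP1 genes made up most of this sum in every library, from 91.2% to 96.4% in HN44 and from 84.2% to 90.8% in SN14. The makeup of the sum also differed between libraries: PIP1-7 alone gave 62.5% of the sum in HN44-1 and PIP1-6 gave 0.705%, whereas in SN14-3 they gave 28.5% and 30.3%. The sum of the PIP2 genes was 25.8, 60.4 and 42.7 FPKM in HN44 and 125, 61.95 and 75.3 FPKM in SN14. All SN14 sums were above those of HN44, by little between SN14-2 and HN44-2. The FPKM totals over all genes were also higher in SN14, at 856284 to 877306 against 764674 to 821659 in HN44. The PIP2 sum was not scaled to these totals and was not tested.

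The 8 genes held 38.02% to 51.6% of the FPKM of all 23 PIP genes. Taken over all 23, the PIP1 and PIP2 classes were closer in size than within the set, since most of the PIP2 signal came from genes outside it. In SN14-3 the PIP1 sum over all 23 was far below the PIP2 sum, at 438 against 817 FPKM. The ratio of summed PIP1 to summed PIP2 levels was 1.14, 0.795 and 0.952 in HN44 and 0.941, 0.818 and 0.535 in SN14. The most abundant PIP2 gene was PIP2-8, named here after its values were seen, at 253, 364 and 305 FPKM in HN44 and 519, 287 and 514 FPKM in SN14.

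**Figure D2:**
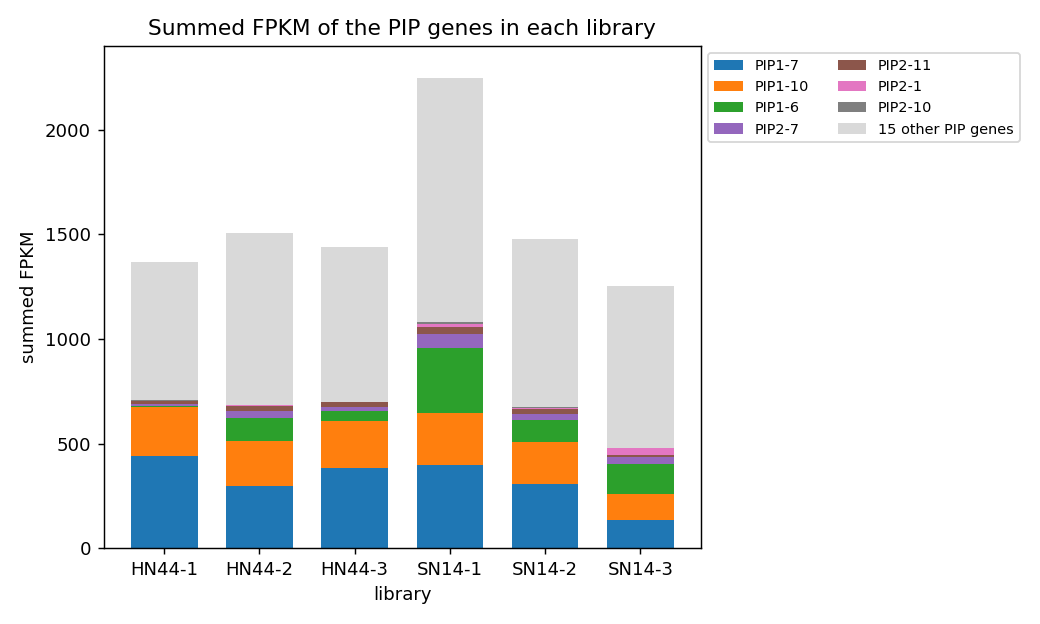
Summed FPKM of the PIP genes (vertical axis, linear from 0) in each library, coloured by gene, with the 15 other PIP genes of the table in grey. PIP1-9, at or under 0.13 FPKM, is left out of the drawing. SN14-1 has the highest sum, and the PIP1-6 share is smallest in HN44-1.

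HN44 was compared with SN14 to ask whether PIP transcripts differ in leaves of genotypes that use water with different efficiency. No PIP gene of the set passed an adjusted p of 0.05 in limma, a linear model fitted across all tested genes with Benjamini-Hochberg adjustment. PIP2-1, PIP1-6 and PIP2-7 had the largest differences, all with lower means in HN44. PIP1-7 and PIP1-10 had higher means in HN44, by less than the SD of the SN14 libraries. A gene was tested where 3 or more libraries reached 1 FPKM, which admitted 7 of the 8. Over all 27140 tested genes 3.78% passed with 6 libraries and 0.553% without HN44-3, and the share of 0 in 7 is close to that background. At an unadjusted p under 0.05, PIP2-1 was the 1 gene of the 7, lower in HN44, where 8.59% of all tested genes were lower at that p. PIP2-1 was also the 1 gene with lower values in all HN44 libraries than in any SN14 library, a pattern found in 10.5% of all tested genes.

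PIP2-1 had a mean of 1.47 ± 0.94 FPKM in HN44 and 17.2 ± 13.6 FPKM in SN14. On the log2(FPKM + 1) scale, which understates the change of low genes, the difference was -2.66 ± 0.61 (SE; limma adjusted p = 0.0652), and -2.60 ± 0.73 without HN44-3 (adjusted p = 0.253). Leaving out SN14-2, its lowest SN14 library, brought it past the threshold, at -3.35 (adjusted p = 0.0159), in a fit that still counts HN44-3 as a library of its own. Under the other settings tried in which it was tested, it did not pass.

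PIP1-6 had a mean of 58.6 ± 75.9 FPKM in HN44 and 186 ± 111 FPKM in SN14, with a log2 difference of -2.35 ± 1.04 (SE; limma adjusted p = 0.196), and of -2.68 ± 1.2 without HN44-3 (adjusted p = 0.374). The difference rested largely on HN44-1: without that library it was -1.13 (adjusted p = 0.371). PIP2-7 had a mean of 20.3 ± 20.01 FPKM in HN44 and 44.7 ± 22.3 FPKM in SN14, with a log2 difference of -1.30 ± 0.61 (SE; limma adjusted p = 0.214), and of -1.42 ± 0.72 without HN44-3 (adjusted p = 0.408). Without HN44-1 this was -0.67 (adjusted p = 0.487). The fits without HN44-1 still counted HN44-3, which resembled a mixture of HN44-1 and HN44-2. HN44-1 was therefore not left out in full for either gene. The 95% intervals of PIP1-6 and PIP2-7, from -4.82 to 0.11 and from -2.74 to 0.13, include large differences as well as 0.

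The remaining genes had smaller differences. PIP1-7, at 369 ± 103 against 281 ± 133 FPKM, had a log2 difference of 0.53 ± 0.40 (SE; limma adjusted p = 0.416), and PIP1-10, at 224 ± 13.3 against 189.6 ± 63.8 FPKM, one of 0.30 ± 0.27 (adjusted p = 0.492). Without SN14-3, their lowest library, these were 0.07 and 0.01. PIP2-10, at 1.61 ± 1.00 against 4.50 ± 4.54 FPKM, had a difference of -0.80 ± 0.74 (adjusted p = 0.499), which was -0.11 without SN14-1 and -1.66 without SN14-3. PIP2-11, at 19.7 ± 4.52 against 21.1 ± 10.03 FPKM, had one of 0.05 ± 0.38 (adjusted p = 0.937). Without HN44-3 the adjusted p of these 4 genes was between 0.633 and 0.99. With 6 libraries, the 95% interval of PIP2-11 ran from -0.84 to 0.94 and that of PIP1-10 from -0.34 to 0.94. For these genes differences of nearly 2-fold could not be told from none. The intervals of PIP1-7, from -0.42 to 1.48, and of PIP2-10, from -2.54 to 0.94, include larger differences as well as 0.

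The median difference of all tested genes was itself 0.17 on the log2 scale, and 0.01 after median-of-ratios scaling. Relative to that median, PIP1-7 stood at 0.36, PIP1-10 at 0.13 and PIP2-11 at -0.12. After the scaling they stood at 0.32, 0.10 and -0.14, so the sign of PIP2-11 turned, while the signs of the other tested genes of the set did not.

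**Figure D3:**
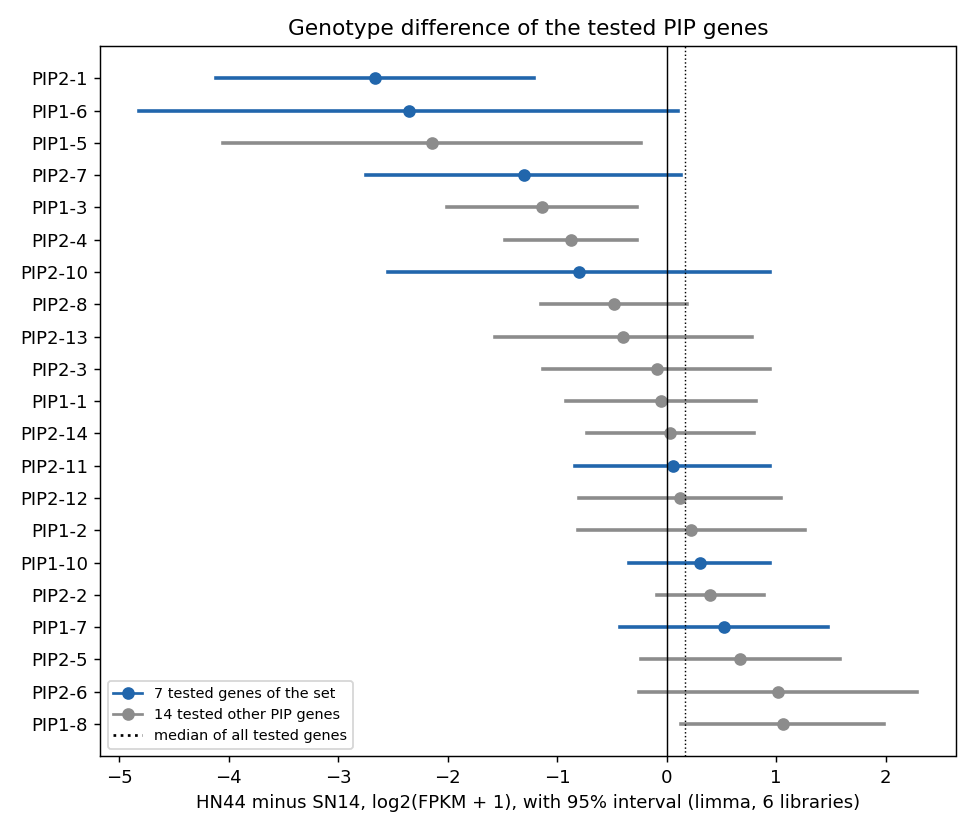
Difference between HN44 and SN14 in log2(FPKM + 1) for the 7 tested genes of the set (blue) and the 14 tested other PIP genes (grey), with 95% intervals from limma on 6 libraries. The dotted line is the median of all tested genes, 0.17. Of the blue intervals, only that of PIP2-1, from -4.11 to -1.21, leaves out 0.

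Over the PIP genes, libraries of 1 genotype differed by about as much as libraries of different genotypes, and the genes followed different orders of libraries. The median absolute log2 difference over the 7 tested genes was 0.80 between HN44-1 and HN44-2 and 1.02, 1.10 and 1.07 between the 3 pairs of SN14 libraries. Over all tested genes these medians were 0.36, 0.29, 0.39 and 0.32. Between HN44-1 or HN44-2 and an SN14 library the median over the 7 genes ran from 0.15 to 1.69. HN44-3 differed from HN44-1 by 0.35 and from HN44-2 by 0.37, and from the SN14 libraries by 0.63 to 1.81. HN44-2 and SN14-2, of different genotypes, differed by a median of 0.15 over the 7 genes, the smallest of the 15 pairs of libraries, and by 0.30 over all tested genes. In that pair the level in HN44-2 was 1.11 times that in SN14-2 for PIP1-6, 0.958 times for PIP1-7, 1.07 times for PIP1-10, 1.13 times for PIP2-7 and 1.01 times for PIP2-11. The exceptions were PIP2-1 at 0.47 times and PIP2-10 at 0.222 times. HN44-1 and SN14-1 had a median absolute difference of 1.63 over the 7 genes, with 6 of them higher in SN14-1 and PIP1-7 higher in HN44-1. The share of all tested genes higher in SN14-1 was not counted.

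Within SN14, all 7 tested genes were higher in SN14-1 than in SN14-2, and 6 were higher in SN14-1 than in SN14-3, the exception being PIP2-1. SN14-1 held the highest value of 5 of the 7 genes. The lowest value was in SN14-3 for PIP1-7, PIP1-10, PIP2-10 and PIP2-11, and in HN44-1 for PIP1-6, PIP2-1 and PIP2-7. The shares of all tested genes with these directions and extremes were not counted, and SN14-1 also had the largest FPKM total. These counts thus show nothing particular to the PIP genes. In HN44-1, PIP1-6 stood at -3.62 relative to its own mean over the libraries on the log2 scale and PIP2-7 at -1.93, while PIP1-7 stood at 0.52. In SN14-3, PIP2-1 stood at 2.51 relative to its mean and PIP1-7 at -1.17.

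**Figure D4:**
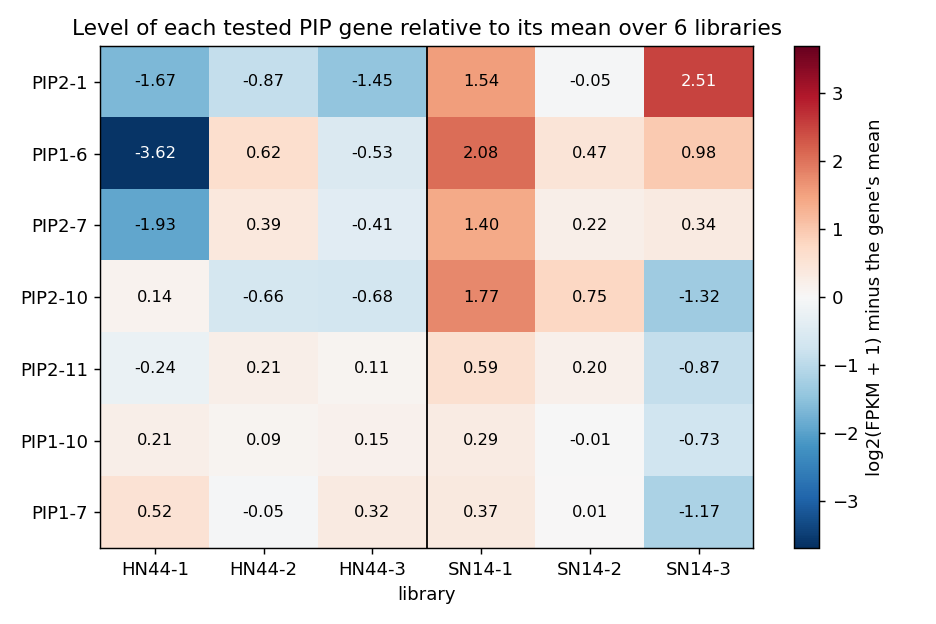
Level of each tested PIP gene in each library as log2(FPKM + 1) minus the gene's mean over the 6 libraries (colour and printed value). PIP1-6 and PIP2-7 are lowest in HN44-1 and highest in SN14-1, whereas PIP1-7, PIP1-10, PIP2-10 and PIP2-11 are lowest in SN14-3.

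Some genes outside the aquaporins had their extremes in the same libraries. The light-harvesting gene LHCB1-7 stood at 55.7, 372 and 186 FPKM in HN44 and at 1291, 476 and 511 FPKM in SN14, lowest in HN44-1 and highest in SN14-1 as PIP1-6 was. Of the 11 leaf markers, 4 had these extremes, 6 were lowest in HN44-1, and 2, both for Rubisco activase, were highest there. The share of all genes with such extremes was not counted, so these counts show no link to the PIP genes. Of the latter, RCABETA ran in reverse, at 9877, 7872 and 8867 FPKM in HN44 and at 4121, 6898 and 4316 FPKM in SN14. The clock genes LCL1, LCL3, LCL4 and MYB114, which carry LHY names as synonyms (LHY is a morning-expressed transcription factor in Arabidopsis), were highest in HN44-1 and lowest in SN14-1. LCL1 was at 592, 427 and 506 FPKM in HN44 and at 283, 378 and 345 FPKM in SN14. The other clock genes listed were not both highest in HN44-1 and lowest in SN14-1. GIGANTEA was lowest in SN14-2, at 47.8 FPKM, and highest in SN14-3, at 79.6 FPKM. PRR3A was also lowest in SN14-2, at 46.7 FPKM, and highest in SN14-3, at 81.8 FPKM. E2 was highest in HN44-1, at 66.1 FPKM, but lowest in SN14-2, at 33.3 FPKM. Of 11 tested clock genes none passed in limma. An unadjusted p under 0.05 was found for 5 of them, all higher in HN44, and for 3 without HN44-3. Of all tested genes, 18.7% were higher at that p with 6 libraries, and 14.1% had such a p in either direction without HN44-3. The clock genes' median difference was 0.27 beside 0.17 for all tested genes. The part of sampling hour or leaf state in the PIP values was not tested.

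The 5 named genes whose pattern was most like the mean profile of the 7 tested PIP genes, among 1117 tested genes with a symbol or synonym that averaged 5 FPKM or more, were CIB1, CYP14, PSK1, MKS2 and CLC1. Their Pearson correlation with that profile over the 6 libraries was 0.982, 0.981, 0.980, 0.979 and 0.975. These are descriptions over few libraries, 1 of which resembles a mixture of 2 others. CIB1 stood at 5.6, 15.6 and 9.69 FPKM in HN44 and at 51.3, 15.3 and 17.3 FPKM in SN14, low in HN44-1 and high in SN14-1. The mean profile lay at -0.94 in HN44-1 and 1.15 in SN14-1. Each tested PIP gene is part of this mean, and genes that vary most weigh most in it. In HN44-1, PIP1-6 stood at -3.62 relative to its own mean, and the others between -1.93 and 0.52. The correlation of a PIP gene with the mean profile is thus partly built in, most of all for the widely varying genes. It was 0.937 for PIP2-7, 0.889 for PIP1-6, 0.083 for PIP1-10 and -0.062 for PIP1-7.

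Among the 15 other PIP genes, 14 were tested and none passed in limma. An unadjusted p under 0.05 was found for 4, 3 of them lower in HN44, and for 1 without HN44-3. Over all tested genes the shares at that p were 27.3% with 6 libraries and 14.1% without HN44-3. The median difference of the 14 was -0.01 on the log2 scale, beside -0.80 for the 7 tested genes of the set and 0.17 for all tested genes. The median of the 7 moved with single libraries, to -0.11 without SN14-1 and -1.46 without SN14-3, and was -0.42 over 8 genes with no filter. The smallest p of the other PIP genes was that of PIP2-4, at 38.2, 38.1 and 39.98 FPKM in HN44 and at 88.3, 86.5 and 48.5 FPKM in SN14, where no HN44 value reached those of SN14 (difference -0.87 ± 0.25 SE; limma adjusted p = 0.0966, and 0.322 without HN44-3). PIP1-3 and PIP1-5 also had all HN44 values below those of SN14, a pattern found in 10.5% of all tested genes. PIP1-8 showed the reverse, for which that share was not counted. PIP1-5, named after its values were seen, was at 1.28, 11.4 and 5.14 FPKM in HN44 and at 69.5, 15.1 and 12.2 FPKM in SN14. Its lowest and highest values were in the same libraries as those of PIP1-6. PIP1-8 had the largest difference in the other direction, at 7.07, 4.96 and 5.44 against 2.58, 4.36 and 0.79 FPKM (1.06 ± 0.39 SE; limma adjusted p = 0.146, and 0.369 without HN44-3).

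In the other aquaporin subfamilies no gene passed either. The TIP genes, for aquaporins of the vacuolar membrane, had 9 tested members with a median difference of -0.93. Of these, 8 had a lower mean in HN44, as did 36% of all tested genes, and 5 were lower at an unadjusted p under 0.05, beside the 8.59% given above. Of the 5, LOC100793258 was at 0.76, 0.49 and 0.33 FPKM in HN44 and at 1.14, 1.41 and 1.98 FPKM in SN14. It passed the filter only through SN14, where it was higher, so its place in the count is no support for a difference. Without HN44-3, 3 TIP genes had an unadjusted p under 0.05 in either direction, beside 14.1% of all tested genes. LOC100817754, a TIP2 gene, had the smallest p of them (-1.61 ± 0.37 SE; limma adjusted p = 0.0642, and 0.254 without HN44-3). NIP genes are for channels that in Arabidopsis also carry boron and metalloids. Of 6 tested NIP genes, 3 had an unadjusted p under 0.05, 2 lower and 1 higher in HN44, and 1 without HN44-3. Over all tested genes the shares at that p were 27.3% with 6 libraries and 14.1% without HN44-3. NIP2-2 had the smallest p (-1.36 ± 0.44 SE; limma adjusted p = 0.118, and 0.336 without HN44-3). SIP genes are for small basic intrinsic proteins of internal membranes. Of 5 tested SIP genes, 3 had an unadjusted p under 0.05, and 2 without HN44-3, beside the same 27.3% and 14.1%. SIP1-4 had the smallest p (-0.88 ± 0.21 SE; limma adjusted p = 0.0689, and 0.304 without HN44-3), and the others, SIP2-1 and SIP2-2, had higher means in HN44, with differences of 0.52 and 0.96. The 1 tested XIP gene, XIP1-1, differed by -0.36 ± 0.36 SE (limma adjusted p = 0.531, and 0.665 without HN44-3).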

How the data were processed

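Leaf RNA of HN44 and SN14 (3 libraries each, grouped by their titles) was used as the FPKM per gene that the authors deposited in 1 table, rounded to 2 decimals per the file headers and values. Start, end and strand are the authors' too. Tools named without a step, per the submitters' processing notes, were RSEM 1.2.12, Bowtie2 2.2.5, HISAT2 2.0.4 and DESeq2 1.4.5; genome build and strand setting are not given in the sources used here. Read totals were not used, so depth and counting error are unknown, and no counting interval is given. How reads were divided between overlapping genes is not stated.

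Symbols, synonyms and chromosome numbers were looked up by gene number in the RefSeq table for Glycine_max_v4.0 (37544 of 38907 matched); no coordinate was taken from it. Sequences are not printed.

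The fit was limma 3.58.1 with a variance trend in R 4.3.3 across all genes that reached 1 FPKM in 3 or more libraries, on log2(FPKM + 1), with 6 libraries and no covariate, checked on simulated data. Alternatives changed the pseudocount, filter, scaling, replicate block and libraries used. All 8 PIP genes are named, with the smallest-p gene of each other subfamily and the 5 genes of most similar pattern. PIP1-8, PIP1-5, PIP1-3, PIP2-8, LOC100793258, LHCB1-7, RCABETA, SIP2-1, SIP2-2 and the clock genes quoted were picked after their values were seen. The members, lists and fits were chosen with earlier results of these data known.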

Additional observations from a re-analysis of the deposited data

How the results depend on the processing

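Replicate numbers did not pair the libraries: deviations of same-numbered libraries from their genotype means correlated at -0.22, -0.44 and 0.03 over the tested genes. Of the differently numbered pairs, HN44-1 with SN14-2 gave 0.43 and HN44-2 with SN14-1 gave 0.24. The remaining pairs lay between -0.17 and 0.15. Deviations within a genotype are from the mean of the same 3 libraries, so these correlations depend on each other. With the replicate block, 174 genes passed over the whole table in place of 1025, and none of the PIP genes. Leaving out each library in turn gave 150 to 961 genes and 0 to 1 PIP genes, the 1 being PIP2-1 without SN14-2. Leaving out HN44-3 and applying the filter again gave 15 genes. At a filter of 5 FPKM the median difference of the PIP genes was 0.054 in place of -0.80, since PIP2-1 and PIP2-10 were no longer tested. Leaving out each library gave a median of -1.46 to -0.11. PIP2-11 turned sign under median-of-ratios scaling (-0.139), quantile normalization (-0.063), without HN44-2 (-0.038) and without SN14-3 (-0.369); leaving out each library gave it -0.369 to 0.362. Beyond the smaller number of libraries or genes in some of these fits, the cause was not tested. The other 6 tested PIP genes kept their direction under each alternative in which they were tested. Over these alternatives the limma adjusted p of PIP2-1 ran from 0.0159 to 0.29, that of PIP1-6 from 0.0992 to 0.385 and that of PIP2-7 from 0.106 to 0.487.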
